A study of Homo sapiens with 4 samples.

Results

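Circular RNA from the genes of splicing factors was examined in a breast cancer cell line with and without knockdown of HNRNPL, itself a splicing factor. The 57 genes were taken from a list of hnRNP proteins, SR proteins, cell-type splicing regulators, spliceosome components and the kinases that act on SR proteins, and were chosen by name. A circle was assigned to a gene where the deposited table named that gene for it and did not class the circle as antisense. Of the 57 genes, 55 had at least 1 such circle, out of 14794 host genes with a count. PTBP1 and KHDRBS3 had none, and HNRNPDL (1 count), ESRP2 (2 counts) and PRPF8 (7 counts) stayed under the 10 counts needed for testing, which left 52 genes.

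The material was MDA-MB-468, an established cell line from a human triple-negative breast cancer, in a radioresistant derivative. All 4 libraries, controls included, came from cells given 50 Gy in total over 6 to 8 weeks. The 2 control libraries carried the hairpin named shCtrl and the 2 knockdown libraries shHNRNPL, a stable hairpin of which the protocol names a single one, so hairpin and knockdown cannot be told apart. The labels call the replicates biological, do not say whether they came from separate cultures, and p-values then measure only the spread between these libraries. No row was named HNRNPL, so the knockdown was not checked here and rests on the labels.

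A circular RNA forms when the spliceosome joins the end of an exon back to the start of the same or an earlier exon, in place of the next one downstream. Proteins that bind the introns beside such exons, among them hnRNP, SR, QKI and muscleblind proteins, can raise or lower the output of circles, and several of them are themselves encoded by genes that make circles. HNRNPL binds CA-rich RNA and acts as a regulator of alternative splicing. A count here is a read of a circle, so a change in circles does not show a change in the linear mRNA or protein of the host gene, and in bulk samples fewer cells with a circle and less of it per cell cannot be told apart.

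The libraries held 472428 and 556578 counts for control replicates 1 and 2, against 282737 and 390547 for the knockdown replicates. A count of 0 allows up to 3 counts, or 0.539 to 1.06 per 100000 counts across the libraries. Reads were amplified without molecular identifiers, so these limits cover counting error only. Control replicate 1 stood apart: exon circles made up 70.9% of its counts and 84.9 to 85.7% of the other 3. The calls below are therefore also given without each control, and the part of that library's composition in them was not tested. Hosts named from a list of 8 breast epithelial genes gave circles for 7 genes in control replicate 1 and 5 in each other library (EGFR, GRHL2, CDH1, ESRP1 and LAMA3 in all 4, KRT19 in none). Their summed level was 80.9 to 124 per 100000 in controls and 52.2 to 56.2 in knockdowns. Most of this sum was GRHL2 (88.3 and 66.8 against 44.2 and 40.2) and EGFR (24.3 and 9.34 against 4.24 and 5.38). CDH1, ESRP1 and LAMA3 overlapped between groups, so the lower sum does not describe the list as a whole. None of 9 hosts from leukocyte, fibroblast or endothelial lists had a count in any library.

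The splicing genes gave 1749 circles with at least 1 count, of 190152 in all, and 13670 of 1702290 counts. Exon circles numbered 1241 and intron circles 508. Most were rare: 1014 (58.0%) were seen in 1 library, against 58.3% of all circles, and 140 in all 4. The 195 circles with at least 10 counts held 66.4% of the counts. For 222 circles more than 1 internal exon structure was listed. The median circle of these genes, counted by reads, was 1311 and 1219 nt long in the controls and 1230 and 1207 nt in the knockdowns, and had 6 or 7 exon blocks against 6 for all circles. Among the exon circles, 84.4% had AG just before the circle and GT just after it, the letters of the usual acceptor and donor sites, against 90.1% of all 110225 exon circles. By counts that share was 86.8% in control replicate 1 and 97.9% in control replicate 2, with 94.4% and 95.4% in the knockdowns, so it was lowest in the library that stood apart.

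The share of all counts that came from these genes was lower in both knockdown libraries than in both controls. It was 0.958% and 0.841% in the controls against 0.627% and 0.689% in the knockdowns, a mean of 0.900% ± 0.0833 (SD, n = 2) against 0.658% ± 0.0436 (SD, n = 2). The groups did not overlap, and the difference of -0.242 percentage points exceeded both SDs. It was -0.153 points over circles that named 1 gene only. The share has no test, since the genes were chosen with earlier results known. Lower values were also common outside these genes. Scaled by library totals, log2 fold changes had a median of -0.58 across 8379 tested host genes and -0.81 across the 52. Both knockdown libraries lay below both controls for 36.7% of tested host genes, so such a drop was not particular to the splicing genes.

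**Figure D1:**
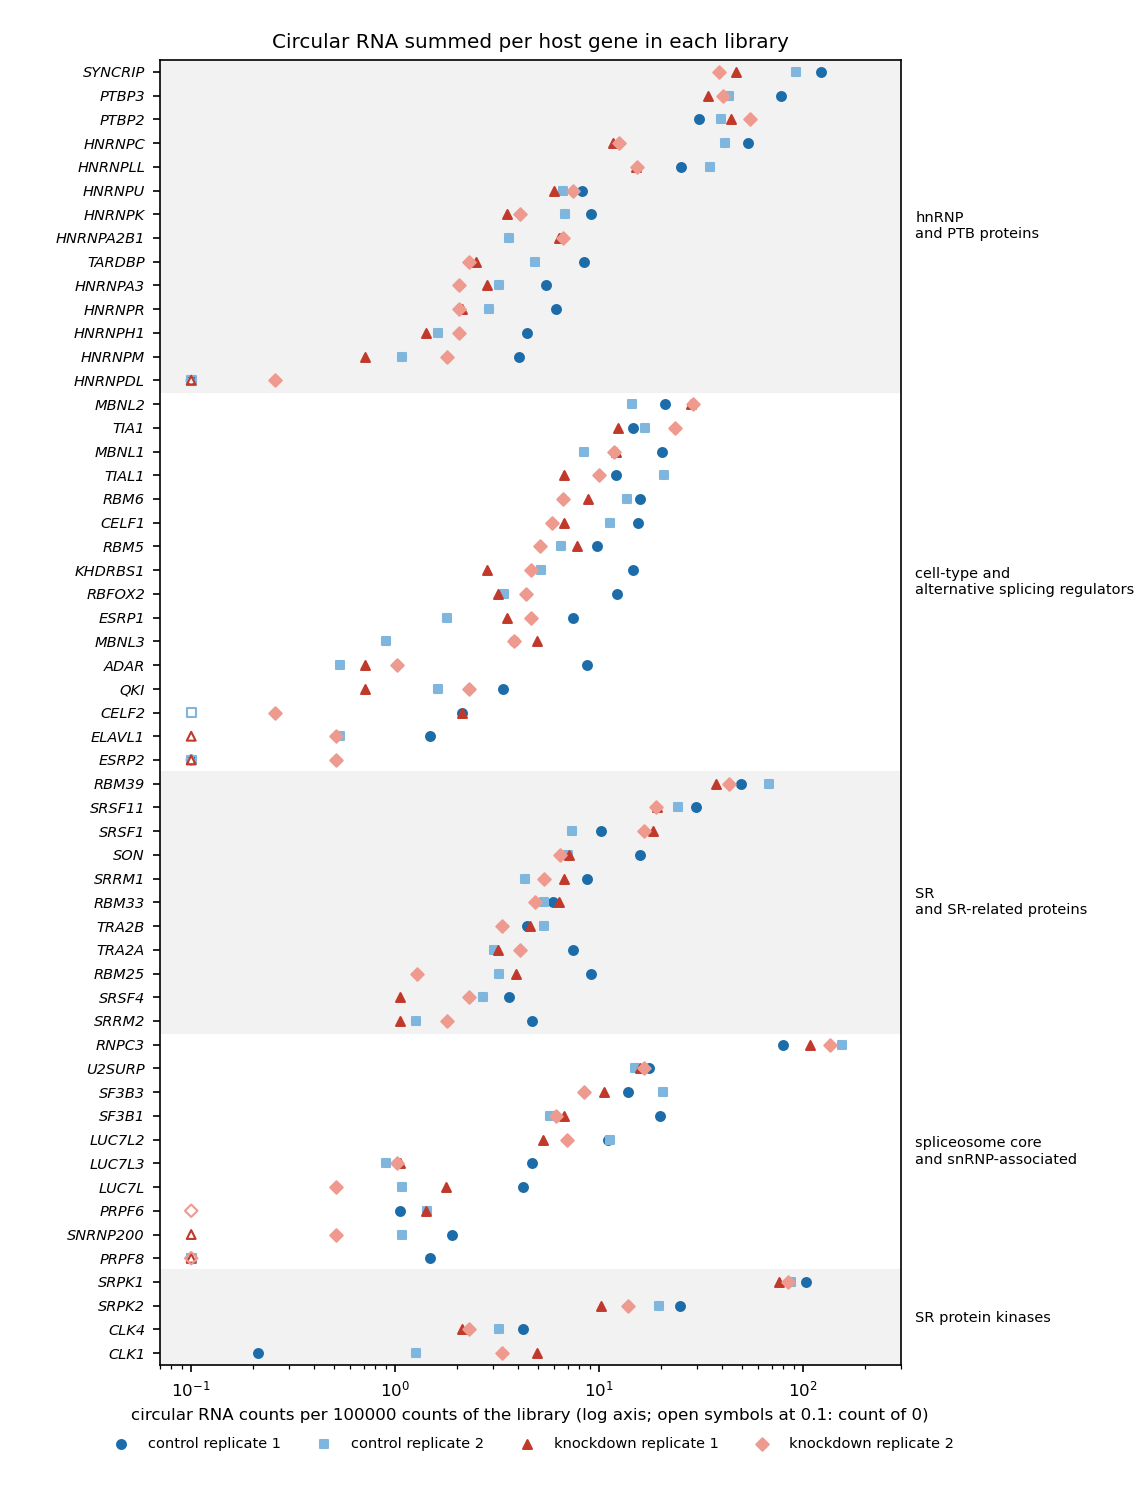
Circular RNA of each host gene in each library, as counts per 100000 counts on a log axis, grouped by the role of the encoded protein; filled symbols are single libraries and open symbols at 0.1 stand for a count of 0. SYNCRIP and HNRNPC in the hnRNP group show both knockdown libraries to the left of both controls, and SRSF1, MBNL2, PTBP2, MBNL3 and CLK1 show the opposite order. For MBNL3 the margin was narrow, with knockdown replicate 2 at 3.84 and control replicate 1 at 3.81.

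Circles were concentrated in few of the genes. The 5 with the most counts, RNPC3, SRPK1, SYNCRIP, RBM39 and PTBP3, held 48.9% of the summed counts. Levels between genes were compared per 10 kb of the RefSeq gene span, as counts per 100000 averaged over the 4 libraries. On that scale RNPC3 was highest at 40.4, then SYNCRIP at 20.7, RBM39 at 12.1, SRPK1 at 9.92 and SRSF1 at 7.22. RBFOX2 (0.20) and CELF2 (0.01) were near the bottom. Dividing by span lowers long genes by construction, and shorter genes such as ELAVL1 (0.13) and PRPF8 (0.11) were also low.

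In the test of host genes, 0 of the 52 passed an adjusted p of 0.05 in either direction (edgeR's quasi-likelihood test, Benjamini-Hochberg over all 8379 host genes tested). Over all host genes 0.442% were called higher and 0% lower. At an unadjusted p under 0.05 there were 5 of the 52, against 13.8% of all host genes. Of these 3 were higher (7.58% of all) and 2 lower (6.19% of all). The fold change was below 0 for 36 and above 0 for 16 of the 52, where all host genes divided 59.6% below and 40.4% above. Both knockdown libraries lay below both controls for 22 (36.7% of all host genes) and above both for 5 (15.3%), on counts per 100000. The median log2 fold change was -0.47 over the 52 and -0.26 over all host genes. Scaling by library totals alone, in place of the TMM normalization used, moved the median of all host genes to -0.58 and that of the 52 to -0.81. It turned the sign of 6 genes, ESRP1, HNRNPU, MBNL1, RBM33, SRPK1 and SRRM1. So counts per 100000 and TMM fold changes can point in opposite directions for genes near 0.

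How many genes were called differed with the control libraries used. Without control replicate 1, 10 of the 52 passed where 20.4% of all host genes did, 4 of them higher (10.7% of all) and 6 lower (9.74% of all). The median log2 fold change of the 52 was then 0.07 and that of all host genes -0.04. Without control replicate 2, 15 passed where 33.4% of all did, 6 higher (17.1% of all) and 9 lower (16.3% of all). In these fits the spread comes from the 2 knockdown libraries alone, and the single control is assumed to vary like them. CLK1, HNRNPC, MBNL2, SRSF1 and SYNCRIP passed in both fits. HNRNPLL, MBNL3, TIAL1, RBM39 and SF3B3 passed only in the fit without control replicate 1. TARDBP, PTBP2, PTBP3, RBFOX2, KHDRBS1, TIA1, ADAR, RBM25, SF3B1 and RNPC3 passed only in the fit without control replicate 2. Of the 52 genes, 20 were lower in both fits, 12 higher in both and 20 opposite. Both fits use the same 2 knockdown libraries, so passing in both is no separate support. The shares of all host genes that passed in both, or kept their direction, are not given here. These counts therefore have no background to be read against. Without either knockdown replicate 0 passed.

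**Figure D2:**
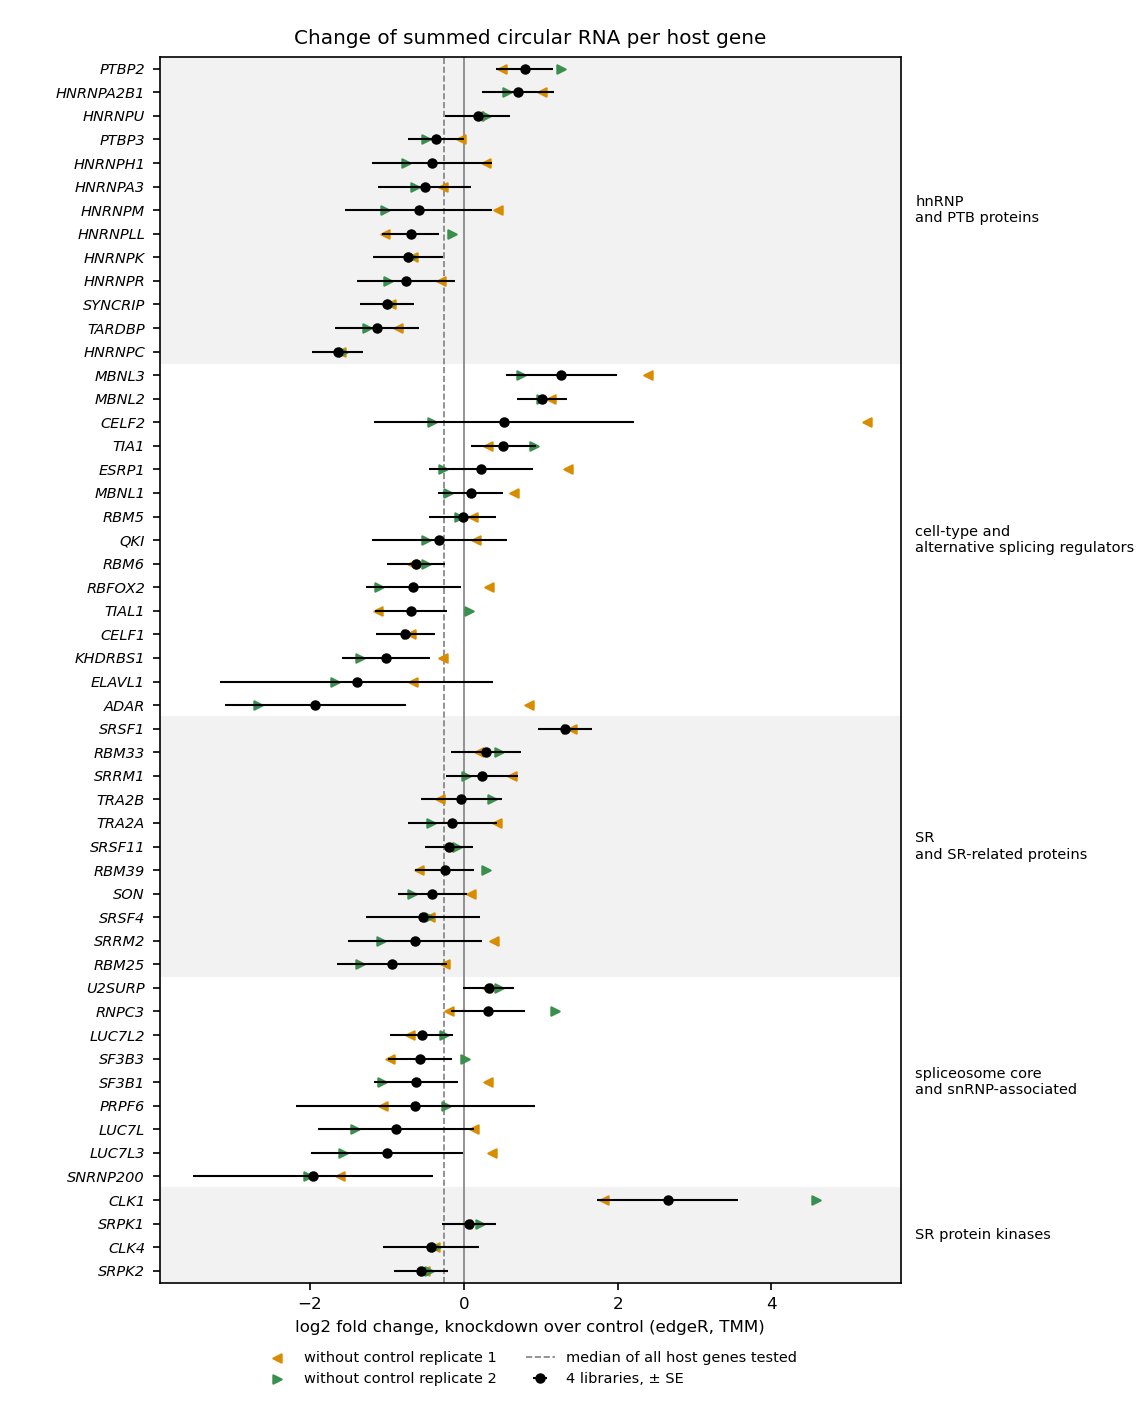
Log2 fold change of each tested host gene, knockdown over control, from edgeR with TMM; black points with bars are the estimate from 4 libraries ± SE, coloured triangles the estimates without 1 control, and the dashed line the median of all host genes tested (-0.26). The triangles of HNRNPC, SYNCRIP, SRSF1 and MBNL2 lie close to the black point, while those of ADAR lie on opposite sides of 0.

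Among the hnRNP and PTB genes, which encode proteins that coat nascent RNA and often repress exons, 13 of 15 were tested and 0 passed. The fold change was below 0 for 10 and above 0 for 3, with a median of -0.59. HNRNPC encodes a nuclear hnRNP that binds uridine tracts and keeps Alu-derived exons out of mRNA. Its circles had 253 and 230 counts in the controls against 33 and 49 in the knockdowns, or 53.6 and 41.3 against 11.7 and 12.5 per 100000. Both knockdown libraries lay far below both controls. This gave a log2 fold change of -1.64 ± 0.33 (SE; adjusted p 0.0869, edgeR), and -1.60 and -1.57 without control replicates 1 and 2. This was the smallest adjusted p of the 52. Under some alternatives HNRNPC passed 0.05, and then as the only one of these genes: with library-size scaling (adjusted p 0.0458, where 0.0597% of all host genes were called lower), with DESeq2 (0.0365, 0.107% of all), with no filter on low counts (0.00634, 0.703% of all) and with a filter of at least 5 counts in 2 libraries (0.0372, 0.0756% of all).

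SYNCRIP, which encodes hnRNP Q, a cytoplasmic and nuclear RNA-binding protein, had 576 and 511 counts in the controls against 133 and 151 in the knockdowns. Per 100000 this was 122 and 91.8 against 47.0 and 38.7, with no overlap. The log2 fold change was -0.997 ± 0.35 (SE) and the adjusted p 0.279 (edgeR). Every SYNCRIP circle also named ENSG00000271793, so the counts cannot be divided between these annotations. TARDBP, the gene of TDP-43, which binds UG-rich RNA and represses cryptic exons, had 40 and 27 counts against 7 and 9, again without overlap. Its log2 fold change was -1.13 ± 0.54 (SE), adjusted p 0.401 (edgeR).

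HNRNPLL is the paralog of HNRNPL. Its circles had 119 and 195 counts in the controls against 43 and 60 in the knockdowns, or 25.2 and 35.0 against 15.2 and 15.4 per 100000. The knockdown libraries were nearly equal and lay below both controls. The log2 fold change of -0.69 ± 0.37 (SE; adjusted p 0.440, edgeR) depended on the control, at -1.03 without replicate 1 and -0.15 without replicate 2. HNRNPK, a poly-C binding protein, had 9.10 and 6.83 against 3.54 and 4.10 per 100000 (log2 fold change -0.72 ± 0.45, SE). Circles naming several genes held 36.4% of its counts, and over circles naming 1 gene only the log2 fold change was -0.12. HNRNPA3 and HNRNPR also lay lower in both knockdown libraries, at log2 fold changes of -0.51 and -0.75. Without control replicate 1 these were -0.27 and -0.30, and without replicate 2 -0.63 and -0.98. HNRNPH1 and HNRNPM overlapped between groups.

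The PTB paralogs bind pyrimidine tracts. PTBP2, the neuronal paralog, had 145 and 220 counts in the controls against 125 and 214 in the knockdowns. Per 100000 this was 30.7 and 39.5 against 44.2 and 54.8, so both knockdown libraries were higher. This was a log2 fold change of 0.79 ± 0.37 (SE; adjusted p 0.396, edgeR), which was 0.50 (adjusted p 0.0510) without control replicate 1 and 1.27 (adjusted p 1.21e-08) without replicate 2. PTBP3 had 369 and 240 counts against 96 and 157, or 78.1 and 43.1 against 34.0 and 40.2 per 100000. The knockdown libraries lay below both controls, though close to control replicate 2, and the log2 fold change was -0.36 ± 0.37 (SE), or -0.04 without control replicate 1 and -0.50 without replicate 2. The difference between the paralogs was not tested. HNRNPA2B1 and HNRNPU gave log2 fold changes of 0.70 and 0.18, with overlapping groups, and HNRNPA2B1 gave -0.37 over its exon circles only.

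Of the 17 regulators of cell-type and alternative splicing, 15 were tested and 0 passed. The fold change was above 0 for 6 and below 0 for 9, with a median of -0.32. MBNL2 is a muscleblind protein, and the fly muscleblind protein promotes a circle from its own gene. MBNL2 circles had 99 and 81 counts in the controls against 80 and 112 in the knockdowns. This was 21.0 and 14.6 against 28.3 and 28.7 per 100000, with the knockdown libraries nearly equal and above both controls. Their log2 fold change was 1.01 ± 0.33 (SE; adjusted p 0.246, edgeR), and 1.13 and 1.01 without control replicates 1 and 2. Over exon circles only it was 1.78 (adjusted p 0.112), with 39.5% of the MBNL2 counts in intron circles. MBNL3 had 18 and 5 counts against 14 and 15, or 3.81 and 0.898 against 4.95 and 3.84 per 100000. Knockdown replicate 2 was thus barely above control replicate 1. Its log2 fold change of 1.27 ± 0.72 (SE; adjusted p 0.463, edgeR) was 2.39 without control replicate 1 and 0.75 without replicate 2. MBNL1 overlapped between groups, at 20.3 and 8.44 against 12.0 and 11.8 per 100000.

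CELF1, which binds GU-rich RNA and often acts against muscleblind proteins, had 73 and 63 counts in the controls against 19 and 23 in the knockdowns. Per 100000 it was 15.5 and 11.3 against 6.72 and 5.89, with no overlap, at a log2 fold change of -0.76 ± 0.38 (SE; adjusted p 0.418, edgeR). RBM6, TIAL1 and KHDRBS1 were also lower in both knockdown libraries than in both controls. TIAL1, the paralog of TIA1, was 12.1 and 20.8 against 6.72 and 9.99 per 100000, and its log2 fold change went from -1.11 without control replicate 1 to 0.07 without replicate 2. KHDRBS1, which encodes the signalling-linked RNA-binding protein Sam68, went from -0.28 to -1.35 over the same pair of fits.

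Several regulators differed more between the controls than between the groups. ADAR, an enzyme that edits double-stranded RNA and can lower circle output, had 41 counts in control replicate 1 and 3 in control replicate 2, with 2 and 4 in the knockdowns. RBFOX2, a regulator of epithelial and neuronal exons, had 58 and 19 counts against 9 and 17. ESRP1, an epithelial splicing regulator, had 35 and 10 against 10 and 18. In each the high value was that of control replicate 1. QKI, which binds introns beside circle exons and drives circle formation in epithelial-mesenchymal transition, had 16 and 9 counts against 2 and 9 and overlapped between groups. CELF2 had 10 and 0 against 6 and 1, all in intron circles. ELAVL1 had 7 and 3 against 0 and 2, or 1.48 and 0.539 against 0 and 0.512 per 100000. It was thus lower in both knockdown libraries, by a narrow margin and on 12 counts in all. RBM5, a regulator of alternative exons, was 9.74 and 6.47 against 7.78 and 5.12 per 100000 and overlapped, at a log2 fold change of -0.01. TIA1 also overlapped, with 69 and 93 counts against 35 and 92, at a log2 fold change of 0.52 that was 0.32 without control replicate 1 and 0.91 without replicate 2.

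Of the 11 SR and SR-related genes, which encode proteins with arginine-serine domains that mostly promote exon inclusion, all were tested and 0 passed. The fold change was above 0 for 3 and below 0 for 8, with a median of -0.19. SRSF1, a founding SR protein, had 48 and 41 counts in the controls against 52 and 65 in the knockdowns. Per 100000 this was 10.2 and 7.37 against 18.4 and 16.6, and both knockdown libraries were higher. Its log2 fold change was 1.32 ± 0.35 (SE; adjusted p 0.182, edgeR), and 1.40 and 1.34 without control replicates 1 and 2. All SRSF1 circles also named ENSG00000266086.

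RBM39, a U2AF-related splicing factor, had 233 and 379 counts in the controls against 106 and 169 in the knockdowns, or 49.3 and 68.1 against 37.5 and 43.3 per 100000. The knockdown libraries lay below both controls, but the log2 fold change of -0.25 ± 0.38 (SE; adjusted p 0.799, edgeR) was -0.58 without control replicate 1 and 0.29 without replicate 2. SRSF11 was 29.8 and 24.4 against 19.1 and 18.9 per 100000, with a log2 fold change of -0.19. SRSF4 was lower in both knockdown libraries at 3.60 and 2.70 against 1.06 and 2.30. The other SR-related genes (TRA2A, TRA2B, SRRM1, SRRM2, SON, RBM25 and RBM33) overlapped between groups, at log2 fold changes of -0.93 for RBM25 to 0.29 for RBM33. RBM25 was at -0.25 without control replicate 1 and -1.35 without replicate 2.

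Of the 10 genes of the spliceosome core and its associated proteins, 9 were tested. In these, 0 passed, 2 were above 0 and 7 below, and the median was -0.62. RNPC3 encodes a protein of the minor spliceosome, which removes the rare U12-type introns, and had the most counts of the 57 genes. There were 374 and 866 counts in the controls against 304 and 527 in the knockdowns, or 79.2 and 156 against 108 and 135 per 100000, so the controls bracketed the knockdowns. The log2 fold change was 0.32 ± 0.48 (SE; adjusted p 0.799, edgeR), -0.19 without control replicate 1 and 1.19 without replicate 2. U2SURP, a U2-associated protein, was close in all 4 libraries, at 17.6 and 14.9 against 15.9 and 16.6 per 100000. SF3B1, the branch point recognition subunit that is recurrently mutated in cancer, had 94 counts in control replicate 1 and 32, 19 and 24 in the others. SF3B3, LUC7L2 and SNRNP200 lay lower in both knockdown libraries than in both controls, at log2 fold changes of -0.57, -0.55 and -1.96, the last on 17 counts in all. For SF3B3 the value was -0.96 without control replicate 1 and 0.02 without replicate 2, and for LUC7L2 -0.70 and -0.26. LUC7L and LUC7L3, homologs of a U1-associated factor, and PRPF6 overlapped.

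The 4 kinase genes, whose products phosphorylate SR proteins, were all tested and 0 passed. CLK1 had the largest fold change of the 52 and few reads: 1 and 7 counts in the controls against 14 and 13 in the knockdowns. Both knockdown libraries were higher, with a log2 fold change of 2.65 ± 0.92 (SE), adjusted p 0.278 (edgeR), and 1.83 and 4.58 without control replicates 1 and 2. CLK4 had 20 and 18 counts against 6 and 9. SRPK1 was abundant and near even, with 485 and 487 counts in the controls against 214 and 328 in the knockdowns. Its level was 103 and 87.5 against 75.7 and 84.0 per 100000, and its log2 fold change 0.07 ± 0.35 (SE; adjusted p 0.950, edgeR). SRPK2 was 25.0 and 19.6 against 10.3 and 13.8 per 100000, with a log2 fold change of -0.55 ± 0.35 (SE).

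A wider list of 148 other splicing genes was read from the same fit. Of these 113 had a count and 92 were tested, with 0 passing and a median of -0.48. At an unadjusted p under 0.05, 1 was higher (7.58% of all host genes) and 6 lower (6.19% of all). The 3 with the smallest p were RALY, an hnRNP C relative (31 and 10 counts against 0 and 1), SF3A3, a U2 component (51 and 10 against 0 and 2), and RBM17, a spliceosome-associated factor (20 and 7 against 0 and 0). In each, control replicate 1 was the highest library. The adjusted p was 0.216, 0.231 and 0.238 in the same order (edgeR).

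Single circles were then tested over all 21576 circles with at least 10 counts, of which 195 belonged to the splicing genes. Of the 195, 0 passed an adjusted p of 0.05, and 0% of all circles did (edgeR's quasi-likelihood test). At an unadjusted p under 0.05 there were 23, against 13.6% of all, with 11 higher (9.29% of all) and 12 lower (4.26% of all). DESeq2 called 8 circles of these genes, against 5.03% of all circles. Without a filter on low counts 3 were called (0.248% of all) and with at least 5 counts in 2 libraries 11 (12.1% of all). Leaving out a control raised the number to 38 without replicate 1 (22.6% of all) and 63 without replicate 2 (29.9% of all), and leaving out a knockdown replicate gave 0. The fold change was above 0 for 67 of the 195 and below 0 for 128, against 39.7% and 60.3% of all circles, with a median log2 fold change of -0.76 over the 195 and -0.41 over all. Both knockdown libraries lay above both controls for 32 (23.2% of all circles) and below both for 57 (22.9%). Positions are GRCh38, and blocks are the unbroken segments, exon or intron, listed for the first structure of a circle. A block can hold sequence that another circle of the gene leaves out.

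The circle with the smallest p was an MBNL2 circle of a single exon block, at chr13:97275632-97276409 on the plus strand (778 nt). It had 1 and 1 counts in the controls against 15 and 21 in the knockdowns, 0.212 and 0.180 against 5.31 and 5.38 per 100000. The log2 fold change was 4.55 ± 0.66 (SE), adjusted p 0.0949 (edgeR), and it was 10.2% of the counts of MBNL2. A second MBNL2 circle, at chr13:97365136-97366553, had 0 counts in both controls and 6 and 4 in the knockdowns, at least 2.68-fold higher against a limit of 3 counts per control library, and was chosen after its values were seen. An intron circle of MBNL2, at chr13:97370422-97371165, had the opposite pattern, with 1 and 15 counts against 0 and 0. It was chosen after its values were seen. The sum of MBNL2 thus held circles with 0 or 1 counts in the controls and others with 0 in the knockdowns.

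In SRSF1 a circle of 1 block at chr17:58003651-58005041 on the minus strand (1391 nt) had 3 and 4 counts in the controls against 19 and 29 in the knockdowns, at a log2 fold change of 3.29 ± 0.51 (SE; adjusted p 0.0984, edgeR). An overlapping circle at chr17:58003658-58005381 (1724 nt) had 3 and 6 against 10 and 27, at 2.54 ± 0.61 (SE; adjusted p 0.170, edgeR). A circle with nearly the same 3' boundary, at chr17:58003611-58005919 and with 2 blocks, had 7 and 6 counts in the controls against 0 in both knockdowns. That last circle was chosen after its values were seen. The first and second held 26.7% and 22.3% of the SRSF1 counts. The block of the first runs unbroken from 2.205 to 3.596 kb along the gene. Another SRSF1 circle, chr17:58001489-58005041, leaves out 2.324 to 3.245 kb, so the first holds sequence that this other circle lacks.

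TIA1, an RNA-binding protein of stress granules and U1 recruitment, had a circle of 7 blocks at chr2:70224554-70230854 on the minus strand (536 nt) with 3 and 6 counts in the controls against 14 and 30 in the knockdowns. That gave a log2 fold change of 2.81 ± 0.55 (SE; adjusted p 0.127, edgeR). The circle chr2:70230756-70236175 (270 nt, 3 blocks, chosen after its values were seen), which shares a block with the higher circle, had 10 and 7 counts against 0 and 1. All TIA1 circles also named C2orf42. In MBNL1 an intron circle at chr3:152445532-152446578 (1047 nt, plus strand) had 0 counts in both controls and 9 and 12 in the knockdowns, at least 5.33-fold higher against the same limit, though the MBNL1 sum overlapped between groups.

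**Figure D3:**
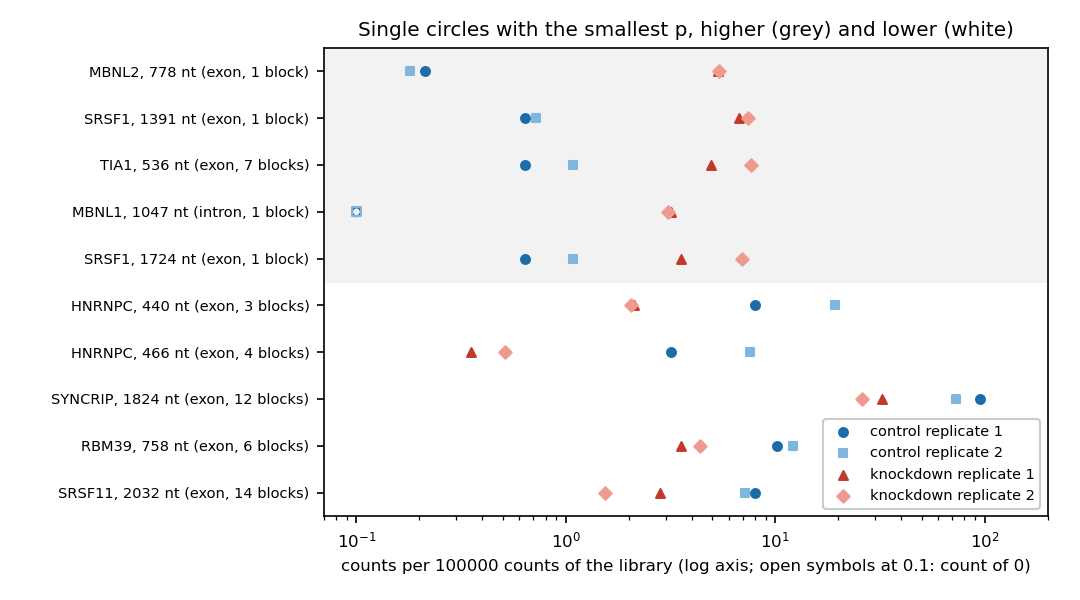
Counts per 100000 on a log axis for the 5 higher and 5 lower circles with the smallest p, with 1 symbol per library and open symbols at 0.1 for a count of 0. Knockdown and control libraries do not overlap in any of the 10 circles, which follows largely from choosing them by p. Over all circles tested, 23.2% lay higher and 22.9% lower without overlap. None of the 10 passed an adjusted p of 0.05 in the fit of all 4 libraries.

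On the lower side, 2 of the 5 circles with the smallest p came from HNRNPC and share a boundary. The circle chr14:21230319-21234229 on the minus strand (440 nt, 3 blocks) had 38 and 108 counts in the controls against 6 and 8 in the knockdowns, at a log2 fold change of -2.70 ± 0.51 (SE; adjusted p 0.122, edgeR). The circle chr14:21230319-21263336 (466 nt, 4 blocks) had 15 and 42 against 1 and 2, at -3.52 ± 0.70 (SE; adjusted p 0.132, edgeR). Over all HNRNPC circles that used position 21230319, the counts were 63 and 161 in the controls against 11 and 15 in the knockdowns. HNRNPC circles also differed between the controls. Those at position 21230319 held 24.9% of the gene's counts in control replicate 1 and 70% in control replicate 2. The circle chr14:21211810-21269403 had 24 counts in control replicate 1 and 0 elsewhere, and was chosen after its values were seen. The sums of both controls were similar while the circles in them differed.

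The main SYNCRIP circle, chr6:85612832-85642869 on the minus strand (1824 nt, 12 blocks), made up 76.8% of that gene's counts and was the most abundant circle of the splicing genes. It had 451 and 408 counts in the controls against 92 and 102 in the knockdowns, or 95.5 and 73.3 against 32.5 and 26.1 per 100000. The log2 fold change was -1.62 ± 0.39 (SE; adjusted p 0.167, edgeR). The SYNCRIP sum was at -0.997 under the TMM factors of host genes and at -1.32 under library-size scaling. The other 2 lower circles were chr20:35713019-35725155 of RBM39 (758 nt, 6 blocks; 48 and 68 counts against 10 and 17) and chr1:70221612-70251131 of SRSF11 (2032 nt, 14 blocks; 38 and 40 against 8 and 6). Their log2 fold changes were -1.54 ± 0.39 and -1.89 ± 0.52 (SE). These 5 lower circles and the 5 higher ones above, 10 in all, were chosen by their p in the fit of all 4 libraries. Fits that leave out 1 control use the same libraries, so they are no separate support for these circles.

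Circles of one gene often shared an end. In RNPC3, 80.2% of the counts came from circles that start at chr1 position 103527695. The leading pair, chr1:103527695-103551073 (1302 nt, 12 blocks) and chr1:103527695-103553317 (1418 nt, 14 blocks), had 128 and 121 counts in control replicate 1 and 315 and 336 in control replicate 2. In the knockdowns they had 115 and 114 counts in replicate 1 and 211 and 194 in replicate 2, so both circles kept near-equal counts in every library. In PTBP2, 82.8% of the counts came from circles ending at chr1 position 96785254, led by chr1:96769703-96785254 (789 nt, 5 blocks) with 53 and 99 counts in the controls against 64 and 130 in the knockdowns. Its log2 fold change was 0.92 ± 0.37 (SE; adjusted p 0.364, edgeR). The main SRPK1 circle, chr6:35857261-35872728 (1035 nt, 6 blocks), had 94 and 116 counts against 48 and 86, a log2 fold change of -0.12 ± 0.35 (SE).

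For the other named genes the most abundant circle was as follows. In PTBP3, chr9:112250929-112297916 had 145 and 83 counts against 33 and 56. In HNRNPLL, chr2:38568199-38591648 (12 blocks) had 45 and 54 against 18 and 24, and did not show the spread between controls that the gene's sum had. In CLK1, chr2:200856682-200858089 (509 nt, 4 blocks) had 1 and 1 counts against 7 and 9, which was 51.4% of the gene. In CELF1 and TARDBP the leading circles, chr11:47486750-47500932 and chr1:11023193-11025208, had 2 and 17 counts against 0 and 1, and 12 and 6 against 3 and 5. In MBNL3 a pair of intron circles tied at 13 counts each, chrX:132437899-132440314 with 2 and 2 against 4 and 5 and chrX:132437899-132441567 with 5 and 0 against 4 and 4.

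Whether circles of one gene changed unequally was tested in the 33 genes with at least 2 tested circles (F test per gene in edgeR's diffSpliceDGE). Of these 0 passed an adjusted p of 0.05, against 3.88% of all 3347 genes tested, and 7 had an unadjusted p under 0.05, against 17.4% of all. Without control replicate 1 there were 16 genes (44.1% of all) and without control replicate 2 17 genes (42.4% of all). Without knockdown replicate 1 or 2 there were 0 (0.0896% and 0% of all). The smallest adjusted p was 0.0606 for TIA1, then 0.0746 for MBNL2 and 0.0790 for RBM33. TIA1 had 4 circles with a fold change above 0 and 3 below, and MBNL2 had 2 and 4. RBM33, an RNA-binding protein, had 2 tested circles, which share the end at chr7 position 155680908. The one at chr7:155672867-155680908 (445 nt, 3 blocks) had 1 and 3 counts in the controls against 8 and 10 in the knockdowns. The one at chr7:155665175-155680908 (524 nt, 4 blocks), which holds 1 block more, had 8 and 23 against 2 and 4. The summed counts of RBM33 were even, at 5.93 and 5.39 against 6.37 and 4.86 per 100000.

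RBM39 had 19 tested circles, more than any other gene here but SRPK1 with 21, and 13 of them had a fold change below 0. In 10 both knockdown libraries lay below both controls (22.9% of all circles), and in 3 above (23.2% of all). The circle chr20:35714185-35725155 (680 nt, 5 blocks) had 7 and 66 counts in the controls against 35 and 57 in the knockdowns, and shares its end with the lower circle named above, which had 48 and 68 against 10 and 17. The circle chr20:35709224-35713096 (1275 nt, 2 blocks) had 1 and 1 counts against 11 and 6. That last circle was chosen after its values were seen. The gene-level adjusted p of unequal change in RBM39 was 0.202 (F test per gene, edgeR's diffSpliceDGE).

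**Figure D4:**
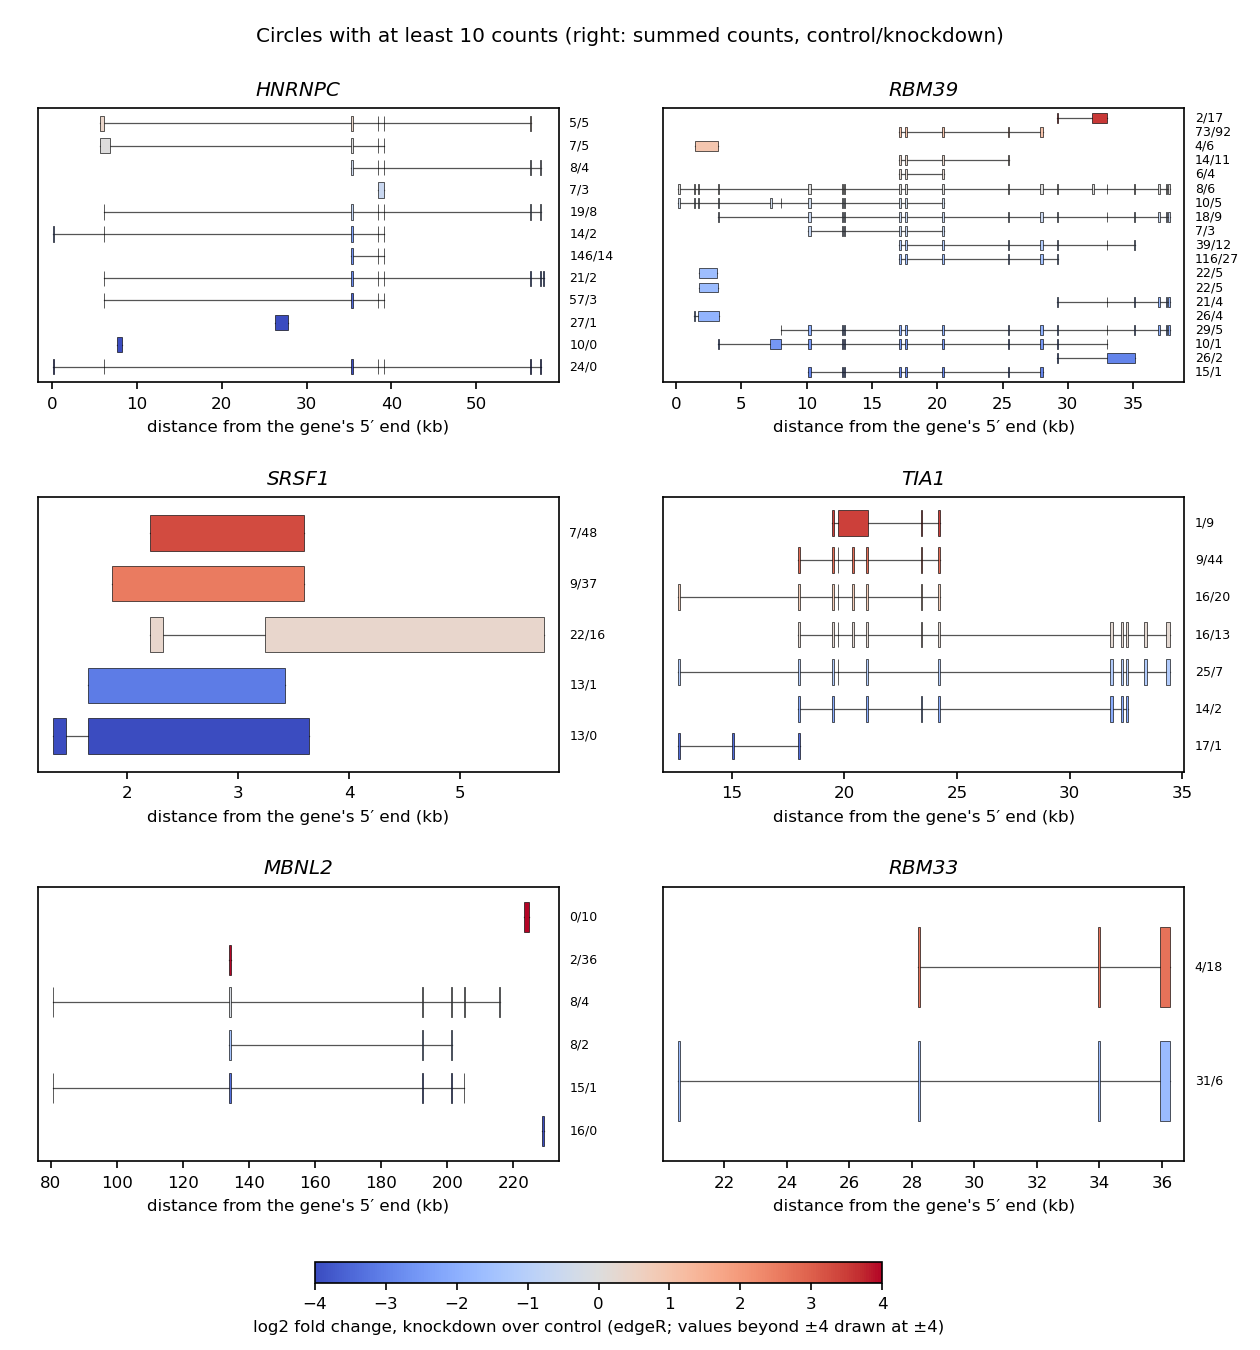
Tested circles of HNRNPC, RBM39, SRSF1, TIA1, MBNL2 and RBM33, drawn to scale along the gene in kb from its 5′ end, 1 circle per line; boxes are exon or intron blocks coloured by log2 fold change, lines join blocks of a circle, and the figures at the right are summed counts, control over knockdown. Higher (red) and lower (blue) circles occur side by side in SRSF1, TIA1, MBNL2, RBM33 and RBM39, while the circles of HNRNPC are mostly blue.

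Intron circles of the splicing genes made up 17.2% and 8.87% of their counts in the controls against 13.0% and 12.1% in the knockdowns, within the spread of the controls. Over all host circles the shares were 21.7% and 11.1% against 10.4% and 10.5%. Genes rich in intron circles included MBNL3 (65.4% of its counts), RBFOX2 (57.3%) and HNRNPA2B1 (53.7%), while CLK1 and SRSF1 had 0%. Circles that named more than 1 gene held 22.8% of the counts of the splicing genes. They cannot be assigned to a single gene, and in SYNCRIP, SRSF1 and TIA1 they were all of the counts. They also held 97.5% of the counts of LUC7L2, 77.3% of SF3B3, 74.0% of PTBP3 and 46.6% of ESRP1. Over circles naming 1 gene only, the log2 fold change was -0.38 for SF3B3, -0.43 for PTBP3 and 0.95 for ESRP1, and LUC7L2 had no value.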

How the data were processed

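Circular RNA was measured in 4 libraries. Libraries, per the labels' protocols, were made by copying total RNA from random hexamers with Induro reverse transcriptase and amplifying it with phi29 polymerase, for sequencing on Nanopore. The authors deposited raw counts, with 1 row per back-splice position (211599 rows). The submitters' processing notes name GRCh38.p14 and DESeq2, and other steps are not given in the sources used here. A second table of the series, whose columns sum to 100000, was not used. The columns giving circle length are in nt, as deposited.

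Counts were summed over the rows naming a gene that were not antisense (1986 rows for the splicing genes), and a row naming several genes counted for each. Library size was the column total. Host genes and circles summing to 10 counts or more were tested with edgeR 4.0.16 (R 4.3.3) by the quasi-likelihood test with TMM and that version's default dispersion method, with Benjamini-Hochberg adjustment over all features and a threshold of 0.05. Standard errors come from the F statistic. Unequal change of circles was tested with diffSpliceDGE on genes with at least 2 tested circles. The functions were tested on simulated data with less spread between libraries than the circles here had. That checks the code and does not show what could be called in these circles. Members, gene lists, tests and alternatives were chosen with earlier results of these data known. Named are the 5 genes and circles with the smallest p in each direction, the 5 with the most counts, each such gene's leading circle and the 3 genes with the smallest p of unequal change; others are said to be chosen after their values were seen or are given in short to account for every gene. Gene spans are from RefSeq (GRCh38.p14), which held all 57 symbols. Circles overlapped their gene's span in 98.4% of cases. Deviations of same-numbered replicates were nearly uncorrelated (r = 0.0806 over 4944 circles), and the groups were treated as unpaired. With so few libraries this r cannot show whether same-numbered libraries were paired.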

Additional observations from a re-analysis of the deposited data

How the results depend on the processing

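Of the splicing genes, 0 passed in the fit described, with the newer dispersion method, with circles naming 1 gene, with exon circles only, and without either knockdown replicate. HNRNPC alone, so 1 gene, passed under library-size scaling, DESeq2, no filter, the filter of 5 counts in 2 libraries and the replicate block (adjusted p 0.0170, where 0.489% of all host genes were called lower). Leaving out 1 library gave 0 to 15 genes. Circles called went from 0 to 8 (DESeq2), 3 (no filter), 11 (at least 5 counts in 2 libraries), 11 (replicate block, 7.51% of all circles) and 0 to 63 (1 library left out). For unequal change the replicate block gave 8 genes (20.4% of all) and leaving out 1 library 0 to 17. With 2 pairs, r = 0.0806 cannot show whether same-numbered libraries were paired, so the block is not read as a paired analysis. The median of the splicing genes was -0.423 to 0.0685 with 1 library left out, the latter without control replicate 1. Their share of counts differed by -0.153 points over circles naming 1 gene, and by -0.301 to -0.183 with 1 library left out. Of 371 values of 35 genes and circles, 13 turned sign, 78 passed where the fit described did not and 280 kept direction and call. Sign turned for SRPK1 under library-size scaling (-0.251) and the RNPC3 circle ending at 103553317 with no filter (-0.0939). With 1 library left out, values that include a turned sign ranged from -0.188 to 1.19 for RNPC3, -0.0455 to 0.208 for SRPK1, -0.580 to 0.287 for RBM39, -0.0477 to 0.646 for the RNPC3 circle ending at 103551073, -0.204 to 0.650 for that ending at 103553317, -0.328 to 0.229 for the main circle of SRPK1, -1.24 to 0.340 for that of TARDBP and -1.39 to 0.0285 for that of PTBP3. The cause was not tested. With 2 libraries a group, the spread between controls and the few reads of most genes limit what could be called.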

Other observations

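Antisense circles of the same genes, left out of the sums above, numbered 235 with at least 1 count, 5 of them with at least 10 counts. They had 294 and 176 counts in the controls against 72 and 128 in the knockdowns, or 62.2 and 31.6 against 25.5 and 32.8 per 100000. Control replicate 1 was the highest library and the other 3 were close to each other.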
